A study of Mus musculus with 14 samples.

Results

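The resident Kupffer cell markers examined here were 10 genes, Clec4f, Timd4, Cd5l, Vsig4, Marco, Cd163, Folr2, Adgre1, Csf1r and C1qa, chosen by name as genes of the macrophages that live in the liver. All 10 were present among the 55427 genes of the deposited table and among the 12110 genes that were tested, which are those with at least 1 scaled FPKM in at least 2 libraries. FPKM is a fragment count divided by exon length and sequencing depth, here brought to one scale across libraries, so that levels can be compared between libraries and, since they are per length, between genes. Clec4f, Cd5l, Vsig4, Csf1r and C1qa reached 1 scaled FPKM in all 14 libraries, Cd163 in 13, Timd4 in 12, Folr2 in 11, Marco in 9 and Adgre1 in 7.

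Kupffer cells sit inside the sinusoids and clear bacteria, ageing red cells and cell debris from portal blood. They are seeded before birth and keep themselves by dividing, with Csf1 as a survival signal and with endothelial and stellate cells supplying the Notch and TGF-beta family ligands that hold their identity. In mouse fatty liver disease resident cells can be lost and replaced by monocyte-derived macrophages, which gain markers such as Clec4f early and Timd4 late.

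Whole-liver RNA was sequenced from male mice carrying floxed alleles of the RAGE gene on a C57B6 background, aged 8 to 10 weeks at the start and fed for 14 weeks. 2 libraries came from HiAD-fed mice that also received pyridoxamine (HiAD + PM; PM blocks the formation of advanced glycation end-products, AGEs, and was injected daily at 60 mg per kg from week 5). Another 3 came from HiAD-fed mice labelled RAGE hepKO, which carried an albumin-driven Cre next to the floxed alleles. That promoter is active in hepatocytes, so the deletion is not aimed at Kupffer cells. Each of the other groups had 3 libraries. HiAD is a high-AGE diet, a fast-food diet cooked at high temperature, given with vehicle. FFD is the fast-food diet itself, both being given with high-fructose water, and Chow is the ordinary diet. No source used here says whether replicate mice shared a cage or a litter, and p-values measure the spread between these libraries.

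Some libraries stood apart, and some went against their labels. Ager, which encodes RAGE, was at 0.198, 1.90 and 1.83 scaled FPKM in the libraries labelled RAGE hepKO, against 0.184, 0.0811 and 0.140 in HiAD libraries of floxed mice, and it was at 0.801 or more in every HiAD + PM, FFD and Chow library. The class I gene H2-Bl likewise lay at or below 0.0771 in HiAD libraries and at or above 2.58 in every other library, while H2-Q1 was at 10.8 or more in HiAD libraries and at 3.66 or less elsewhere. In the comparisons with HiAD, these differences, which no label names, cannot be told apart from the diet, pyridoxamine or Cre genotype compared. Mitochondrial transcripts took 24.3% to 53.1% of summed FPKM in the libraries labelled RAGE hepKO, highest in RA19, and 6.06% to 24.1% elsewhere. FFD library R31 was the highest of all 14 libraries for 9 of the 10 markers. Marker values in the comparisons with FFD or RAGE hepKO are therefore also given without R31 or RA19, while the HiAD libraries, which 4 of the 5 main comparisons share, cannot be replaced. Read depth is unknown from FPKM, and a low value may rest on few reads.

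Clec4f, a C-type lectin receptor that in the mouse is made by Kupffer cells, was low in every HiAD liver. It stood at 55.5 and 45.5 scaled FPKM in HiAD + PM livers, at 48.9, 85.6 and 60.8 in livers labelled RAGE hepKO, at 15.8, 12.1 and 13.8 in HiAD livers, at 64.1, 122 and 38.6 in FFD livers, and at 25.4, 64.5 and 35.5 in Chow livers. The 3 HiAD libraries were thus the lowest of the 14, with no overlap with any other group. Timd4, a phosphatidylserine receptor with which resident macrophages bind dying cells, had 5.77 and 5.65 scaled FPKM in HiAD + PM livers, 4.22, 6.16 and 5.92 in livers labelled RAGE hepKO, 1.27, 0.410 and 0.414 in HiAD livers, 6.01, 20.5 and 5.17 in FFD livers, and 2.27, 4.72 and 5.01 in Chow livers. Again the HiAD libraries were the lowest 3, and 2 of them lay under 1 FPKM. Clec4f and Timd4 were the only 2 of the 10 markers with that pattern. Over all genes tested, HiAD libraries lay wholly below FFD libraries for 14% and wholly below Chow libraries for 12.4%. The share of all genes below every other group at once was not counted.

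Cd5l encodes a secreted scavenger receptor cysteine-rich protein of tissue macrophages, also known as apoptosis inhibitor of macrophages. Its level was 84.4 and 73.3 scaled FPKM in HiAD + PM livers, 40.5, 122 and 91.0 in livers labelled RAGE hepKO, 26.9, 32.6 and 22.4 in HiAD livers, 101, 300.5 and 69.0 in FFD livers, and 27.2, 37.3 and 31.7 in Chow livers. HiAD and Chow libraries overlapped for Cd5l, and together they formed the lowest 6 of the 14.

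Clec4f, Timd4 and Cd5l were the markers that passed in HiAD against FFD, and the sequences just upstream of their start sites are shown for that reason. They come from the RefSeq promoter windows of GRCm38.p6 and are printed up to the first annotated base of the gene, chr6:83656188-83656366 on the minus strand for Clec4f, chr11:46810549-46810798 on the plus strand for Timd4 and chr3:87357631-87357880 on the plus strand for Cd5l. Capitals mark GAGGAA, the core of sites for the ETS factors Spi1 and Spi-C, which take part in macrophage identity, and TGGGAA, the core of sites for RBPJ, which acts in Notch signalling, on either strand (TTCCTC and TTCCCA on the other strand).
Clec4f: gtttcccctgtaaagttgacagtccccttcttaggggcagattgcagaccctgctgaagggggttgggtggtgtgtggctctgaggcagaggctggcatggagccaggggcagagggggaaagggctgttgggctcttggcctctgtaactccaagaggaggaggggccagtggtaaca
Timd4: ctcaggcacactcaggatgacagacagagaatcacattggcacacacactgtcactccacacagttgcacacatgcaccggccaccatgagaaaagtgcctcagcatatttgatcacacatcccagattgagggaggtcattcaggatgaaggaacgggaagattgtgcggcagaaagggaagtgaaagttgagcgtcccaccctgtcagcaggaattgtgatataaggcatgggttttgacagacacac
Cd5l: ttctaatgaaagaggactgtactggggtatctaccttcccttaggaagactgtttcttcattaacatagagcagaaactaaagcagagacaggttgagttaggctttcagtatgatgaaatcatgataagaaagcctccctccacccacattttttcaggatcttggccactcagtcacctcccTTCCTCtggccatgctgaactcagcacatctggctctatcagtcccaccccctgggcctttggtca
Windows of 250 bases before to 50 bases after the start were examined for 7 of the 10 markers, 8 windows in all. Adgre1 and C1qa had no window in the sequences read, and Csf1r was left out of this count. GAGGAA occurred for 3 of these 7 (Cd5l, Vsig4 and Marco), against 28.3% of all 32851 windows of this length, and TGGGAA for 2 of the 7 (Clec4f and Marco), against 25.6%. The match of Clec4f lies outside its printed stretch, so that only Cd5l shows capitals, and Timd4 held neither. Printed stretches and matches describe letters only and were not tied to any binding data.

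Vsig4, a complement receptor that captures opsonised particles, overlapped between most groups. It was at 20.5 and 14.6 scaled FPKM in HiAD + PM livers, 7.33, 41.2 and 16.7 in livers labelled RAGE hepKO, 7.90, 9.89 and 9.0 in HiAD livers, 23.6, 52.8 and 11.3 in FFD livers, and 8.09, 28.9 and 12.3 in Chow livers. Marco, a collagenous scavenger receptor for bacteria and particles, was low in 13 libraries, from 0.482 in Chow R1 to 5.61 in RAGE hepKO RA21, and stood at 30.1 in FFD R31. Cd163, the receptor that takes up haemoglobin bound to haptoglobin, had 5.12 and 3.38 scaled FPKM in HiAD + PM livers, 5.4, 6.78 and 6.5 in livers labelled RAGE hepKO, 2.24, 0.882 and 1.63 in HiAD livers, 2.32, 9.96 and 1.93 in FFD livers, and 2.58, 9.19 and 4.07 in Chow livers. For Cd163 the HiAD libraries lay below HiAD + PM, RAGE hepKO and Chow libraries without overlap, but overlapped with FFD.

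Csf1r is the receptor for the macrophage growth factors Csf1 and Il34. It was measured at 8.22 and 7.45 scaled FPKM in HiAD + PM livers, 6.13, 14.8 and 13.1 in livers labelled RAGE hepKO, 3.77, 4.84 and 2.80 in HiAD livers, 8.44, 21.5 and 5.13 in FFD livers, and 3.97, 6.37 and 7.05 in Chow livers. C1qa, which encodes a chain of the complement initiator C1q, was among the most abundant of the markers, at 86.0 and 76.8 in HiAD + PM livers, 92.8, 109 and 187 in livers labelled RAGE hepKO, 46.5, 55.2 and 25.9 in HiAD livers, 110, 275 and 72.2 in FFD livers, and 46.6, 76.3 and 70.3 in Chow livers. Both genes are made by macrophages in general and not by Kupffer cells alone. Adgre1, an adhesion receptor used as a general mouse macrophage antigen, was at 1.52 and 1.54 in HiAD + PM livers, 0.123, 2.98 and 0.789 in livers labelled RAGE hepKO, 0.528, 0.769 and 0.724 in HiAD livers, 1.85, 8.61 and 1.71 in FFD livers, and 0.644, 2.19 and 0.666 in Chow livers. Folr2, the beta folate receptor of resident macrophages, lay between 0.197 in Chow R1 and 4.57 in RAGE hepKO RA20 and overlapped between most groups. Exons of Folr2 and Csf1r overlap those of Gm10602 and Hmgxb3 on the opposite strand, and the strand setting of the counting is not given in the sources read for these data.

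**Figure D1:**
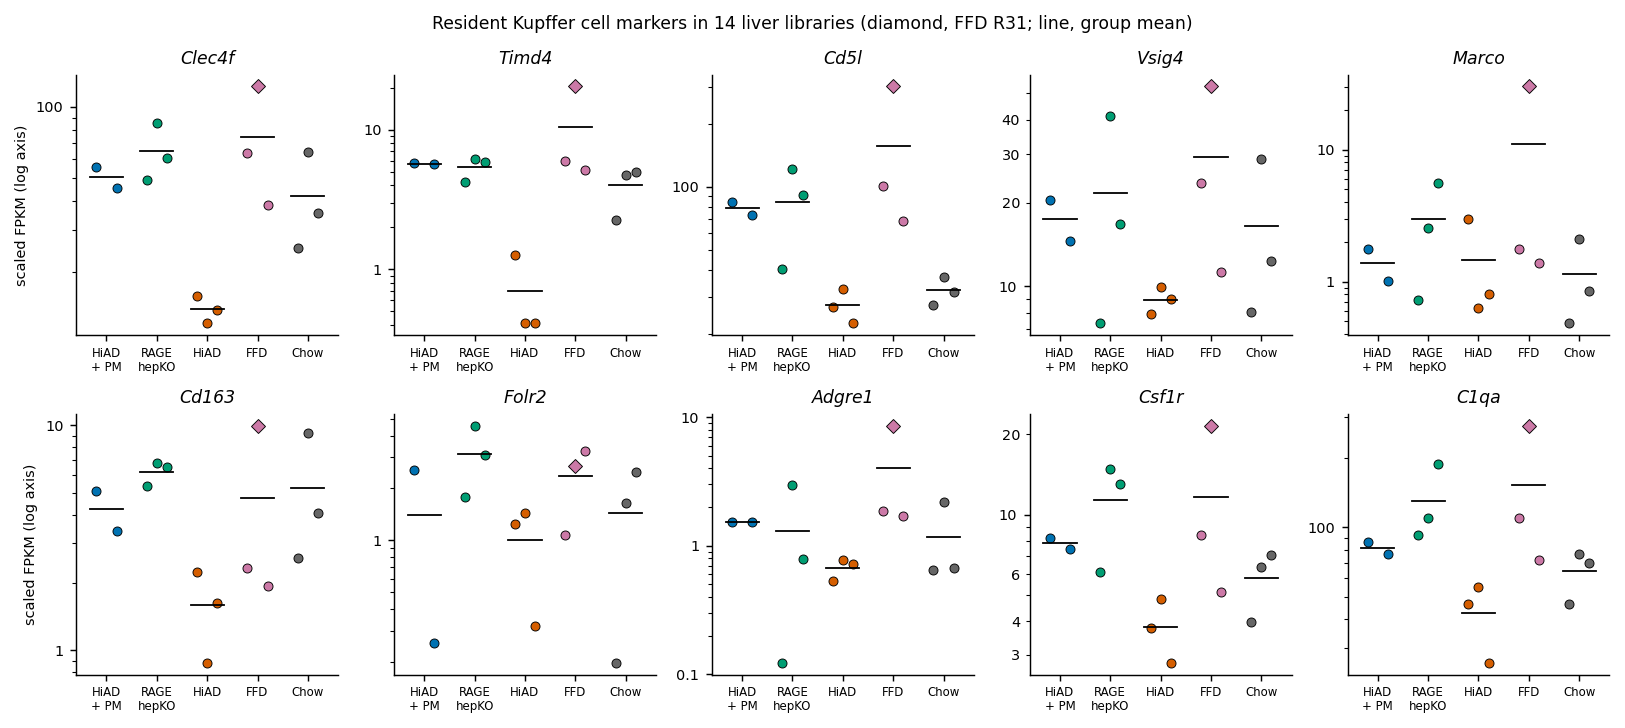
Scaled FPKM (vertical log axes, one panel per marker) in each of the 14 libraries, by group from HiAD + PM to Chow; points are libraries, the diamond is FFD R31 and lines are group means. The 3 HiAD points are the lowest of all for Clec4f (12.1 to 15.8) and Timd4 (0.410 to 1.27), and FFD R31 is the highest point for every marker but Folr2.

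Ordered by the mean of log2 levels, HiAD was the lowest of the 5 groups for 9 of the 10 markers, and Chow was the lowest for Marco. The share of all genes with HiAD lowest was not counted. The markers are also not independent of each other, with a median Pearson r of 0.739 between pairs over the 14 libraries. FFD was the highest group for 7 markers, and the livers labelled RAGE hepKO were the highest for Cd163, Folr2 and Csf1r. None of the 40 pairs of neighbours in these orders passed an adjusted p of 0.05 in limma. For Clec4f and Timd4 the neighbours at the low end were HiAD and Chow. Within groups other than HiAD the markers mostly moved together by library. Among the HiAD libraries B2 was the highest for 6 markers and the lowest for 4. RA19 was the lowest of the RAGE hepKO libraries and Chow R1 the lowest of the Chow libraries for all 10 markers, whereas RA19 was the lowest of its group for 33.6% and Chow R1 for 26.5% of all genes tested. In bulk RNA, fewer Kupffer cells and less of these transcripts per cell cannot be told apart.

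HiAD against FFD addressed whether cooking the fast-food diet at high temperature changes the markers. Timd4, Clec4f and Cd5l were lower in HiAD livers, 3 of the 10 markers, against 1.45% of all genes tested. Timd4 fell by 2.56 ± 0.41 on the log2 scale (SE, 3 libraries against 3, adjusted p = 0.00446 from limma), which is 0.170 times the FFD level on the scale of FPKM plus 1. Clec4f fell by 2.20 ± 0.40 (SE, adjusted p = 0.0103 from limma) and Cd5l by 2.21 ± 0.48 (SE, adjusted p = 0.0262 from limma). All 10 log2 fold changes were below 0, as were those of 5758 of the 12110 genes tested. Their median was -1.37 against 0.02 over all genes. For 7 markers the HiAD libraries lay wholly below the FFD libraries, a pattern shown by 14% of all genes. Of the 7 markers that did not pass, C1qa came nearest (-1.65 ± 0.45, SE, adjusted p = 0.0698 from limma), and Folr2 had the value nearest 0 (-0.73 ± 0.47, SE, adjusted p = 0.494 from limma).

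The call of Cd5l was also lost without HiAD B1, B2 or B3 or FFD R28 (adjusted p up to 0.121 from limma), and C1qa passed without FFD R32 (-2.07, adjusted p = 0.0394 from limma).

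FFD R31 stood far above the other FFD livers for most markers. Its ratio to the mean of FFD R28 and R32 was 19.1 for Marco, 4.83 for Adgre1, 4.69 for Cd163, between 2.38 and 3.66 for Clec4f, Vsig4, C1qa, Csf1r, Cd5l and Timd4, and 1.23 for Folr2. With R31 left out of HiAD against FFD, Timd4 was at -1.98 ± 0.30 (SE, adjusted p = 0.00789 from limma) and Clec4f at -1.77 ± 0.37 (SE, adjusted p = 0.0405 from limma), whereas Cd5l was at -1.60 ± 0.39 and no longer passed (SE, adjusted p = 0.0803 from limma). Marco was at -0.18 ± 0.53 and Cd163 at -0.30 ± 0.38 without R31 (SE). The median of the 10 markers was -0.77 without R31, against -1.37 with it. The broad macrophage genes were raised in R31 to a like extent, with a median ratio of 3.36 over 22 genes, 17 of which were highest there. Over the 4 neutrophil genes tested the median ratio was 4.58, and the neutrophil list summed to 115 scaled FPKM in R31 against 36.2 in R28 and 1.02 in R32. The liver sinusoidal endothelial list had a median ratio of 1.06, the hepatocyte list 0.814, and all genes tested 0.998, of which 5.22% were highest in R31. The part of these cells in the values of R31 was not tested.

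**Figure D2:**
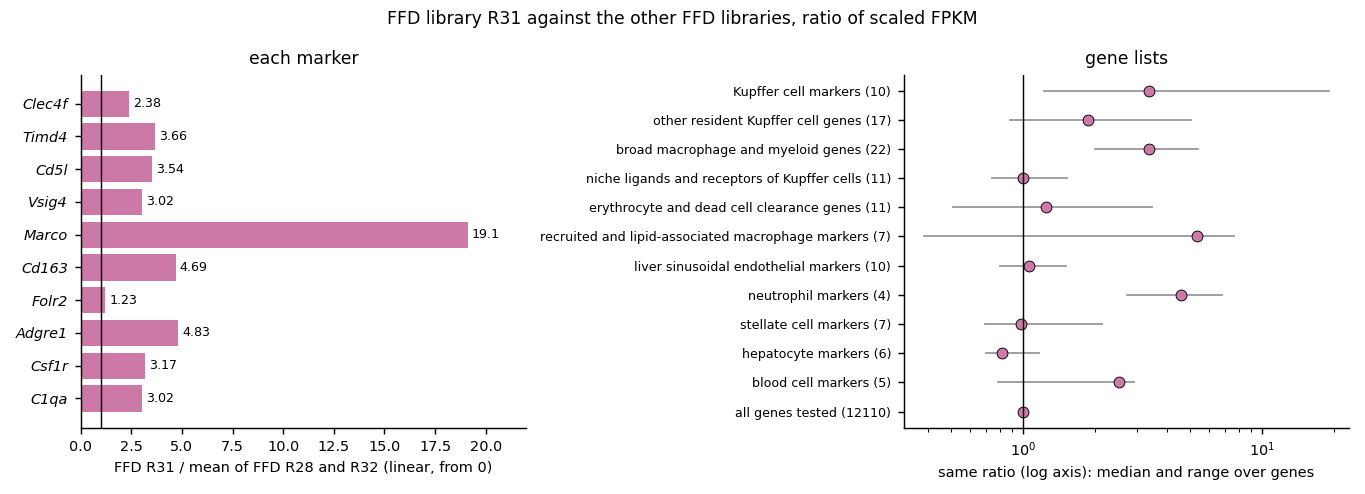
Ratio of scaled FPKM in FFD R31 to the mean of FFD R28 and R32, for each marker (left, bars from 0 on a linear axis, Marco 19.1 and Folr2 1.23) and for each gene list with at least 3 tested genes (right, log axis; points are medians, grey lines the range over genes, numbers of genes in brackets). The vertical line marks a ratio of 1, near which the endothelial (1.06) and all-gene (0.998) medians lie, while macrophage and neutrophil lists lie above it.

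In HiAD against Chow none of the 10 markers passed, where 1.82% of all genes were called lower, and 3 were lower at an unadjusted p under 0.05 in limma, where 9.2% of all genes were. Timd4 was at -1.54 ± 0.41 (SE, adjusted p = 0.0506 from limma), Clec4f at -1.42 ± 0.40 (SE, adjusted p = 0.0619 from limma) and Cd163 at -1.18 ± 0.47 (SE, adjusted p = 0.182 from limma). For these 3 markers the HiAD libraries lay wholly below the Chow libraries, as for 12.4% of all genes. Cd5l, in contrast with its value against FFD, was at -0.23 ± 0.48 (SE, adjusted p = 0.834 from limma). The median of the 10 was -0.56. With FFD R31 left out of the shared estimate of the spread, Timd4 (adjusted p = 0.00883 from limma) and Clec4f (adjusted p = 0.0372 from limma) passed at fold changes of -1.54 and -1.42. Both also passed without FFD R32 (adjusted p = 0.0466 for Timd4 and 0.0448 for Clec4f from limma), and Timd4 without Chow R1 or RAGE hepKO RA19 (adjusted p = 0.0477 and 0.0459 from limma).

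FFD against Chow gave no call among the 10 markers, against 0.00826% of all genes called higher, and 3 markers were higher at an unadjusted p under 0.05 in limma, where 4.77% of all genes were. Cd5l had the largest difference, 1.98 ± 0.48 (SE, adjusted p = 0.197 from limma), and its FFD libraries, like those of Timd4, lay wholly above the Chow libraries, as for 8.15% of all genes. Cd163 was at -0.27 ± 0.47 and the other 9 markers were above 0, as were 5781 of the 12110 genes tested, with a median of 0.90 over the 10 markers. Without R31 the median of the 10 was 0.39. Cd5l was then at 1.36 ± 0.39 (SE, adjusted p = 0.57 from limma) and Cd163 at -0.87 ± 0.38 (SE, adjusted p = 0.768 from limma).

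HiAD + PM against HiAD compared livers with and without pyridoxamine on the same diet, with 2 libraries against 3. The same libraries also differed in Ager, H2-Bl and H2-Q1, which cannot be told apart from pyridoxamine. Timd4 and Clec4f were higher in HiAD + PM livers, 2 of the 10 markers, against 3.31% of all genes. Timd4 rose by 2.02 ± 0.46 on the log2 scale (SE, adjusted p = 0.0207 from limma) and Clec4f by 1.79 ± 0.44 (SE, adjusted p = 0.0323 from limma). Cd5l was at 1.51 ± 0.53 (SE, adjusted p = 0.127 from limma), Cd163 at 1.04 ± 0.53 and C1qa at 0.98 ± 0.50 (SE), none of which passed. All 10 fold changes were above 0, as were those of 6152 of the 12110 genes tested. Their median was 0.94 against 0.01 over all genes. For 8 markers both HiAD + PM libraries lay above every HiAD library, as for 26% of all genes. Marco (0.06 ± 0.92) and Folr2 (0.13 ± 0.53) were the 2 that overlapped (SE). The calls of Timd4 and Clec4f were lost without HiAD B2, HiAD B3 or either PM library, and that of Clec4f also without HiAD B1, with adjusted p-values up to 0.166 for Timd4 and 0.231 for Clec4f from limma. Without FFD R31 Cd5l passed as well (1.51 ± 0.39, SE, adjusted p = 0.0458 from limma).

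Livers labelled RAGE hepKO against HiAD had the most calls, 6 of the 10 markers higher, against 15.7% of all genes. Clec4f rose by 2.12 ± 0.40 (SE, adjusted p = 0.00245 from limma), Timd4 by 1.94 ± 0.41 (SE, adjusted p = 0.00423 from limma) and C1qa by 1.59 ± 0.45 (SE, adjusted p = 0.0174 from limma). Cd163 rose by 1.51 ± 0.47 (SE, adjusted p = 0.027 from limma), Csf1r by 1.30 ± 0.42 (SE, adjusted p = 0.0319 from limma) and Cd5l by 1.48 ± 0.48 (SE, adjusted p = 0.0322 from limma). Folr2 (1.05 ± 0.47), Vsig4 (0.89 ± 0.61), Marco (0.60 ± 0.82) and Adgre1 (0.26 ± 0.50) did not pass (SE). For 7 markers the RAGE hepKO libraries lay wholly above the HiAD libraries, as for 20.3% of all genes, and the median of the 10 was 1.39. Of all genes 17.7% were lower here, and the mitochondrial share of these libraries was high. Of the 6 hepatocyte markers 3 were lower, Alb (-1.01 ± 0.32), Apob (-1.20 ± 0.25) and Cps1 (-2.57 ± 0.55), and Ttr was higher (1.38 ± 0.33), while Apoa1 (0.59 ± 0.28) and Cyp2e1 (0.49 ± 0.33) did not pass (SE). The part of these differences in the marker values was not tested. Without RA19, the library with the highest mitochondrial share, the same 6 markers passed, with Clec4f at 2.33 ± 0.44 and Timd4 at 2.13 ± 0.47 (SE). Without HiAD B3 or RA21 only Clec4f and Timd4 passed, and without RA20 only these and C1qa. Leaving out HiAD B1 lost Csf1r and Cd5l, and leaving out HiAD B2 lost Cd5l and Cd163.

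**Figure D3:**
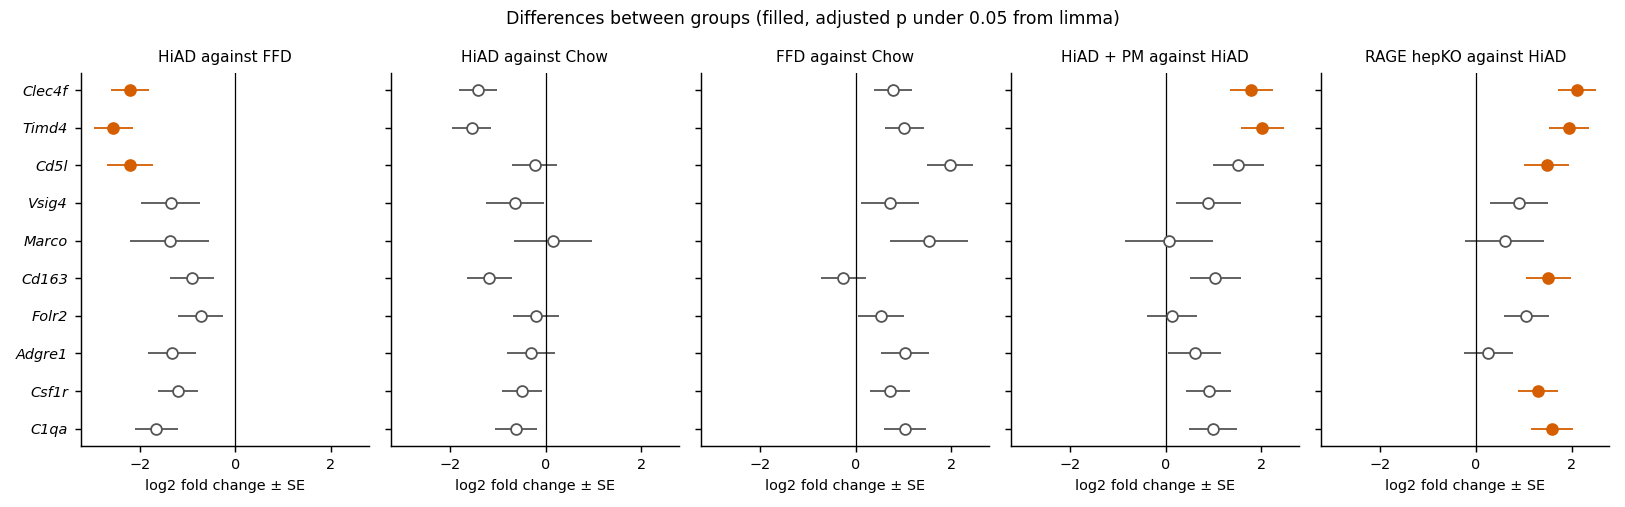
Log2 fold change ± SE (horizontal axes, same scale in all panels) of each marker in the 5 main comparisons, from limma on log2 of scaled FPKM plus 1; filled symbols have an adjusted p under 0.05. Timd4 and Clec4f are filled in HiAD against FFD (-2.56 and -2.20), HiAD + PM against HiAD (2.02 and 1.79) and RAGE hepKO against HiAD (1.94 and 2.12), and no symbol is filled in the comparisons with Chow.

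The 4 comparisons that involve HiAD share the same 3 HiAD libraries, so their values for Clec4f and Timd4 are not independent of each other. Pairs without HiAD gave no call among the 10 markers. In HiAD + PM against FFD the background of calls was 0.132% of all genes, in HiAD + PM against Chow 0.644%, in RAGE hepKO against FFD 19.7%, in RAGE hepKO against Chow 7.93% and in RAGE hepKO against HiAD + PM 18.8%. Fold changes of Clec4f were -0.41 ± 0.44, 0.37 ± 0.44, -0.08 ± 0.40, 0.69 ± 0.40 and 0.33 ± 0.44 in these 5 pairs (SE). Those of Timd4 were -0.54 ± 0.46, 0.48 ± 0.46, -0.61 ± 0.41, 0.40 ± 0.41 and -0.08 ± 0.46 (SE).

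Ratios within a library do not depend on how libraries were scaled, and they show whether the specific markers were low relative to general macrophage genes. The ratio of Timd4 to C1qa was 0.0672 and 0.0736 in HiAD + PM livers, 0.0316 to 0.0564 in livers labelled RAGE hepKO, 0.00743 to 0.0274 in HiAD livers, 0.0547 to 0.0744 in FFD livers and 0.0486 to 0.0713 in Chow livers. HiAD libraries were therefore the lowest 3 for this ratio, and FFD R31, so high in the single markers, had a ratio like those of the other FFD libraries. Timd4 to Csf1r gave the same order, at most 0.338 in HiAD libraries and at least 0.414 in the other 11. For Clec4f to Csf1r the HiAD libraries spanned 2.51 to 4.91 and the other 11 spanned 4.65 to 10.1, so that they overlapped slightly, and Clec4f to C1qa overlapped more (0.220 to 0.531 against 0.325 to 0.845). Cd5l to C1qa did not set the HiAD libraries apart (0.578 to 0.863 against 0.436 to 1.12), nor did Csf1r to C1qa (0.0810 to 0.108 against 0.0661 to 0.136). These ratios were chosen after values were seen and carry no test.

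**Figure D4:**
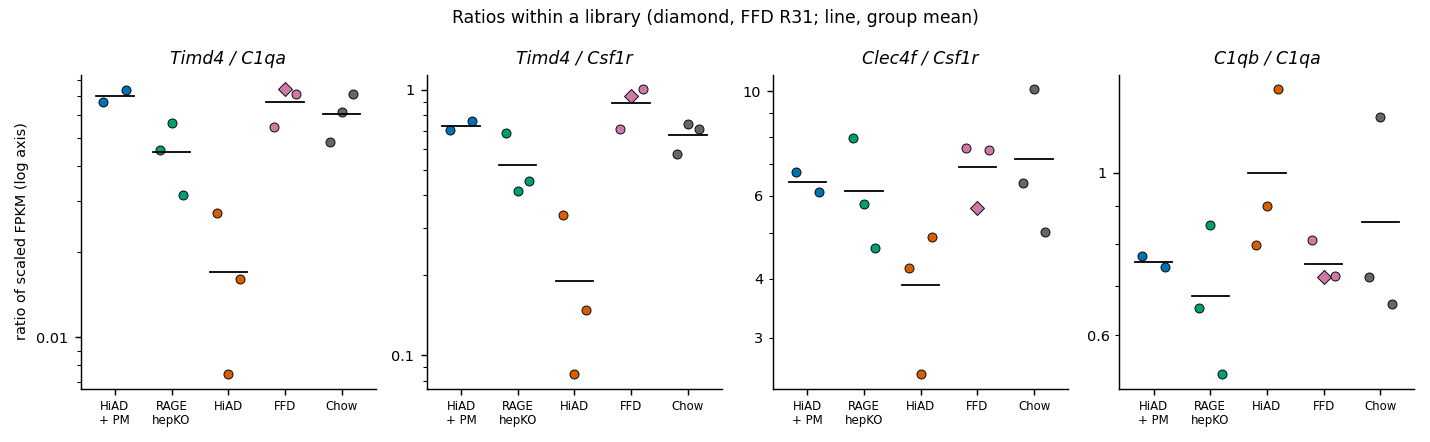
Ratios of scaled FPKM within each library (vertical log axes) for 4 pairs of genes, by group; points are libraries, the diamond is FFD R31 and lines are group means. HiAD points lie below all others for Timd4 to C1qa (0.00743 to 0.0274) and Timd4 to Csf1r (at most 0.338), overlap slightly for Clec4f to Csf1r, and are not set apart for the 2 C1q chains.

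Other genes of resident Kupffer cells divided into a few that followed the markers and many that did not. Of 18 such genes, 17 were tested, and 2 were lower in HiAD against FFD, against 1.45% of all genes. C6, which encodes a component of the complement membrane attack complex, fell by 2.19 ± 0.36 (SE, adjusted p = 0.00517 from limma), and Fabp7, a fatty acid binding protein, fell by 1.64 ± 0.30 (SE, adjusted p = 0.0103 from limma). The same 2 genes were lower in HiAD against Chow, C6 by -2.45 ± 0.36 and Fabp7 by -1.22 ± 0.30 (SE, adjusted p = 0.00215 and 0.0358 from limma). C6 had 12.8 and 10.4 scaled FPKM in HiAD + PM livers, 3.63, 10.3 and 8.31 in livers labelled RAGE hepKO, 0.238, 1.94 and 0.292 in HiAD livers, 5.45, 8.32 and 6.38 in FFD livers and 7.67, 7.65 and 9.24 in Chow livers, so that its HiAD libraries were the lowest 3, as for Timd4 and Clec4f. In HiAD + PM against HiAD, C6 was the only one of the 17 that passed (2.90 ± 0.40, SE, adjusted p = 0.00128 from limma). The medians of the 17 fold changes were -0.20 in HiAD against FFD, 0.01 in HiAD against Chow and 0.14 in HiAD + PM against HiAD. In FFD against Chow none passed in limma, and 3 had an unadjusted p under 0.05, where 4.77% of all genes were higher and 5.28% lower.

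In RAGE hepKO against HiAD, 6 of the 17 were higher and 2 were lower, against 15.7% and 17.7% of all genes. C6 (2.23 ± 0.36), Fabp7 (1.51 ± 0.30), the potassium channel gene Kcna2 (1.21 ± 0.28), Nr1h3, which encodes the nuclear receptor LXR-alpha needed for Kupffer cell identity (1.0 ± 0.16), Spic, a transcription factor of iron-recycling macrophages (0.81 ± 0.28), and the C-type lectin gene Clec1b (0.68 ± 0.19) were higher (SE). The nuclear receptor gene Rxra was among those that were lower (-0.92 ± 0.22, SE). Rxra and Nr1h3 are also expressed by hepatocytes. Nr1h3 was at 34.2, 42.4 and 36.5 scaled FPKM in livers labelled RAGE hepKO and at 15.5, 18.5 and 21.2 in HiAD livers. Spic and Kcna2 were below 1 scaled FPKM in every HiAD, HiAD + PM and Chow library, and their fold changes on the scale of FPKM plus 1 understate ratios at such levels.

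**Figure D5:**
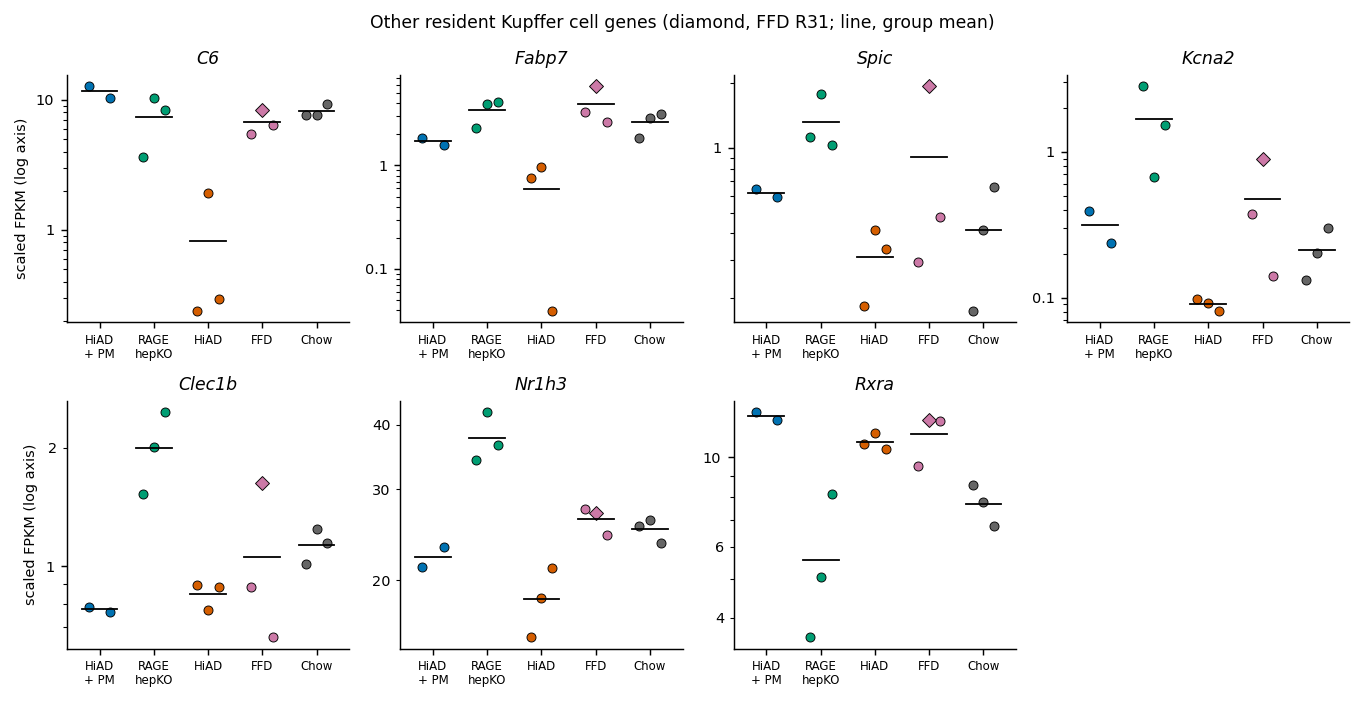
Scaled FPKM (vertical log axes) of 7 other resident Kupffer cell genes that passed in at least 1 comparison, by group and library; the diamond is FFD R31 and lines are group means. C6 and Fabp7 are lowest in the 3 HiAD libraries (C6 at 1.94 or less), while Spic, Kcna2, Clec1b and Nr1h3 are highest, and Rxra lowest, as group means in the livers labelled RAGE hepKO.

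General macrophage and myeloid genes were called in a single one of the 5 comparisons. Of 23 listed, 22 were tested, and none passed in limma in the 4 comparisons other than RAGE hepKO against HiAD. An unadjusted p under 0.05 in limma was found for 7 in HiAD against FFD (8.73% of all genes higher and 7.49% lower) and for 0 in HiAD against Chow (10.8% and 9.2%). It was found for 6 in FFD against Chow (4.77% and 5.28%) and for 0 in HiAD + PM against HiAD (10.2% and 9.81%). Their median fold changes were -0.68, -0.15, 0.73 and 0.28 in these comparisons, and their summed level spanned 221 to 246 scaled FPKM in HiAD + PM livers, 131 to 235 in HiAD livers, 216 to 892 in FFD livers and 128 to 316 in Chow livers, beside 185 to 337 in livers labelled RAGE hepKO. In RAGE hepKO against HiAD, 6 of the 22 were higher, against 15.7% of all genes. These included the calcium-binding protein gene Aif1 (1.82 ± 0.31), the adaptor gene Tyrobp (1.26 ± 0.39) and the mannose receptor gene Mrc1 (1.17 ± 0.28) (SE). The others were the cytokine receptor gene Csf2ra (1.16 ± 0.37), the Fc receptor gene Fcgr1 (1.14 ± 0.35) and the engulfment receptor gene Mertk (0.67 ± 0.24) (SE). C1qb and C1qc, the partner chains of C1qa, did not pass in any of the 5 comparisons. C1qb was at -1.28 ± 0.44 and C1qc at -1.54 ± 0.49 in HiAD against FFD, and at 1.04 ± 0.44 and 0.65 ± 0.49 in RAGE hepKO against HiAD (SE).

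Among 12 markers of recruited and lipid-associated macrophages 7 were tested, and Spp1, which encodes osteopontin and is also made by cholangiocytes, ran opposite to Timd4. It was at 13.1 and 20.2 scaled FPKM in HiAD + PM livers, 16.1, 34.8 and 25.7 in livers labelled RAGE hepKO, 84.3, 137 and 93.5 in HiAD livers, 27.8, 25.0 and 19.5 in FFD livers and 27.2, 29.4 and 27.6 in Chow livers. The HiAD libraries were the 3 highest, and Spp1 was at 2.06 ± 0.28 in HiAD against FFD (SE, adjusted p = 0.00194 from limma) and at -2.58 ± 0.31 in HiAD + PM against HiAD (SE, adjusted p = 0.000502 from limma). The lysosomal glycoprotein gene Gpnmb passed in RAGE hepKO against HiAD (-0.89 ± 0.27, SE) and was at 0.134 or less outside HiAD. The cholangiocyte gene Epcam was likewise higher in HiAD against FFD (1.44 ± 0.27, SE), so markers of another cell type that makes Spp1 moved with it, and their part in its level was not tested. Other genes of recruited cells were at low levels, except Cd9, which averaged 6.81 scaled FPKM in HiAD livers and 8.17 in Chow livers. As group means, Trem2, Cx3cr1 and Itgax were highest in HiAD livers. Ccr2, Ly6c2, Clec4e, Plac8 and S100a4 were highest in FFD livers, and Cd9 and Chil3 in Chow livers. Trem2, a lipid receptor that was not tested, lay between 0.328 and 1.06 scaled FPKM in HiAD livers and at 0.252 or less in every other library. The chemokine receptor gene Cx3cr1 averaged 0.184 in HiAD + PM livers, 0.355 in livers labelled RAGE hepKO, 1.67 in HiAD livers, 0.359 in FFD livers and 0.181 in Chow livers, and it was at 0.91 ± 0.37 in HiAD against FFD (SE, adjusted p = 0.236 from limma). Ccr2 reached 1.88 in HiAD livers and 2.83 in FFD livers, Ly6c2 reached 2.34 in FFD R31, and Clec4e was at 0.177 or less in every library.

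Signals that keep Kupffer cells in place were mostly not called in the diet comparisons. Of 14 niche ligands and receptors 11 were tested, and none passed in HiAD against FFD in limma. At an unadjusted p under 0.05 in limma there were 4, where 8.73% of all genes were higher and 7.49% lower. Over all genes, 2.81% were called higher in HiAD against Chow, and 15.7% higher and 17.7% lower in RAGE hepKO against HiAD. Gdf2, which encodes a BMP family ligand, was higher in HiAD against Chow (1.29 ± 0.28, SE, adjusted p = 0.0204 from limma), as was the receptor gene Notch2 (0.84 ± 0.22, SE, adjusted p = 0.0454 from limma). Both were lower in RAGE hepKO against HiAD (Gdf2 -1.21 ± 0.28, Notch2 -1.12 ± 0.22, SE), together with Bmp10 (-1.27 ± 0.30), Tgfbr2 (-1.20 ± 0.28) and Tgfbr1 (-0.58 ± 0.18), while the co-receptor gene Eng was higher (1.06 ± 0.25) (SE). Csf1, the ligand of Csf1r, did not pass in any of the 5 comparisons, at -0.29 ± 0.29 in HiAD against FFD and 0.43 ± 0.29 in RAGE hepKO against HiAD (SE). Il34, the other ligand, lay below 1 scaled FPKM in every library and was not tested.

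Of 12 genes for the clearance of red cells and dead cells 11 were tested. Over all genes, 1.66% were called higher in HiAD against FFD, 2.81% higher in HiAD against Chow and 3.14% lower in HiAD + PM against HiAD. In RAGE hepKO against HiAD 15.7% of all genes were higher and 17.7% lower. The fatty acid and lipoprotein scavenger receptor gene Cd36 and the phosphatidylserine bridging factor gene Mfge8 were higher in HiAD against FFD (2.43 ± 0.49 and 0.90 ± 0.18, SE), and in HiAD against Chow so were Cd36, Mfge8 and the TAM receptor ligand gene Gas6 (3.13 ± 0.49, 0.92 ± 0.18 and 0.83 ± 0.20, SE). All 3 were lower in HiAD + PM against HiAD (Cd36 -4.50 ± 0.55, Mfge8 -1.04 ± 0.20, Gas6 -1.03 ± 0.23, SE). In RAGE hepKO against HiAD the metal transporter gene Slc11a1 (1.59 ± 0.29), the biliverdin reductase gene Blvra (1.20 ± 0.20) and the endothelial scavenger receptor gene Stab2 (0.56 ± 0.19) were higher, and Cd36, Mfge8, Gas6, Scarb1 and Slc48a1 were lower (SE). Several of these genes are also made by hepatocytes, endothelial cells or stellate cells. 

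Markers of the other cell types of the liver were read beside the Kupffer cell genes. Hepatocyte markers gave no call in the diet and PM comparisons in limma (at most 2 of 6 in any of them had an unadjusted p under 0.05), and of the 10 sinusoidal endothelial markers Clec4g was lower in HiAD against Chow (-0.96 ± 0.24, SE) and Lyve1 lower in HiAD + PM against HiAD (-1.96 ± 0.45, SE). Of 7 stellate cell markers, Dcn was higher in HiAD against FFD (1.17 ± 0.23), Dcn and Reln in HiAD against Chow, and Dcn was lower in HiAD + PM against HiAD (-1.55 ± 0.26) (SE). Among 5 blood cell markers Alas2, the haem synthesis enzyme of red cell precursors, was the only one called in the diet and PM comparisons, at -1.81 ± 0.28 in HiAD against FFD, -1.48 ± 0.28 in HiAD against Chow, 2.34 ± 0.31 in HiAD + PM against HiAD and 1.97 ± 0.28 in RAGE hepKO against HiAD (SE). The globin genes did not follow it in HiAD + PM against HiAD, where all 4 were below 0 and none passed, with Hba-a2 at -1.39 ± 0.64 and Hbb-bs at -0.91 ± 0.61 (SE), and Hba-a1 was higher in RAGE hepKO against HiAD (1.28 ± 0.36, SE). In RAGE hepKO against HiAD the dendritic cell gene Clec9a (1.11 ± 0.25), the B cell gene Cd79a (1.48 ± 0.30) and the neutrophil gene Csf3r (0.74 ± 0.26) were also higher (SE), the calls among 2, 1 and 4 tested genes of their lists, which had none in the other 4 comparisons. Of all genes 15.7% were higher in RAGE hepKO against HiAD, and the part of these cell types in the marker values was not tested.

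Likeness between genes was read as Pearson r of log2 levels. Over the 14 libraries, which include FFD R31, Timd4 and Clec4f had a Pearson r of 0.947, the highest of the 45 pairs of markers, whose median was 0.739. Without R31 the median was 0.609 and the pair of Timd4 and Clec4f stood at 0.940. Taking off the group means, with R31 included, gave a median of 0.798, with Cd5l and Csf1r highest at 0.969. That measure was not repeated without R31. The 5 genes most like Clec4f were Timd4, Lilra5 (0.945), Cd300ld (0.924), the properdin gene Cfp (0.906) and Serpina11 (0.898), and those most like Timd4 were Siglece (0.951), Lilra5 (0.950), Clec4f, Cfp (0.924) and Cd300ld (0.921). Cd5l was most like the actin-binding protein gene Cotl1 (0.978), C1qa most like Cfp (0.961), Csf1r most like Lcp2 (0.951), Adgre1 and Vsig4 most like Cd300e (0.964 and 0.920), and Cd163 most like the complement gene Hc (0.918). Marco was most like the immunoglobulin gene Ighg2b (0.903), and 2 further immunoglobulin genes were among its 5. Folr2 was most like 4833438C02Rik (0.834) and Rbm38 (0.792). After taking off group means the 5 genes most like Clec4f were Vcam1 (0.961), Ahcyl2, S100a8, Ctsc and Dnajc12, none of which was among its 5 before. All r values are descriptions over these libraries, with no test.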

How the data were processed

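Whole-liver RNA from 14 mice was sequenced by the authors as paired-end reads, aligned to GRCm38 with GENCODE annotation, and the sources describe a count matrix filtered on molecular identifiers. The deposited table is named as counts, but its values are not whole, and multiplied by exon length in kilobases they sum to 901152 to 993429 per library. The deposited values were therefore treated as FPKM. This unit is inferred, and the step by which the authors reached FPKM is not stated in what was read.

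From 55583 entries, dropping 27 with date names and 129 exact duplicates left 55427 genes. Scale factors were trimmed means of log ratios (30% off each end) across 6522 genes at 1 FPKM or more throughout. The 12110 genes with at least 1 scaled FPKM in at least 2 libraries were tested as log2(scaled FPKM + 1), so fold changes of low genes are understated. limma 3.58.1 in R 4.3.3 estimated 5 group means over all 14 libraries, with trended and robust empirical Bayes variances and Benjamini-Hochberg adjustment within each comparison at 0.05, and was tested on simulated data. The study's own model weighted samples, which was run as an alternative. Figures used matplotlib 3.10.9.

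The members and gene lists (other Kupffer cell genes, macrophage, niche, clearance, recruited macrophage, endothelial, dendritic, lymphocyte, neutrophil, stellate, cholangiocyte, hepatocyte and blood genes) were chosen with earlier results of these data known. All 10 members are named, list genes where they passed a comparison (a single listed gene is not reported here), and for each member the 5 genes with the highest Pearson r were taken, of which the text names some. C1qb, C1qc, Csf1, Il34, Trem2, Ly6c2, Clec4e, Cx3cr1, Ccr2, Cd9, Itgax, Chil3, Plac8, S100a4 and the hepatocyte and globin genes that did not pass were named after their values were seen. Alternatives changed the scaling, pseudocount, filter, samples and weights, and left out each library in turn.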

Additional observations from a re-analysis of the deposited data

How the results depend on the processing

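Timd4 and Clec4f stayed lower in HiAD against FFD under all 26 alternatives (highest adjusted p = 0.0308 and 0.0489 from limma) and higher in RAGE hepKO against HiAD under all 25 (highest adjusted p = 0.0198 and 0.0107 from limma). The number of markers called moved elsewhere. In RAGE hepKO against HiAD it was 2 with FPKM as deposited (7.88% of all genes higher) and 2 with no filter (5.14%), instead of 6. It was 4 with sample quality weights (14.1%), which lost Csf1r and Cd163 (adjusted p = 0.0583 and 0.0536 from limma). No filter also ended the call of Cd5l in HiAD against FFD (adjusted p = 0.0854 from limma). Unscaled FPKM moved the median of all genes in RAGE hepKO against HiAD to -0.26. In HiAD against Chow the number called was 1 with median of ratios scaling, 1 with a pseudocount of 0.1, 1 with 0.5, 1 with a filter on the mean and 2 without both FFD R31 and RAGE hepKO RA19 (chosen after seeing the data), instead of 0. Of all genes 1.97%, 1.92%, 1.96%, 2.16% and 2.51% were lower in these settings. In HiAD + PM against HiAD it was 0 with no filter, where 1.12% of all genes were higher, and 5 with only the 2 groups compared, where 7.46% were, instead of 2. In FFD against Chow it was 1 with sample quality weights, where 1.68% of all genes were higher, instead of 0. At an unadjusted p under 0.05 the counts were 7 lower in HiAD against FFD (7.49% of all genes), 3 lower in HiAD against Chow (9.2%) and 3 higher in FFD against Chow (4.77%). Leaving out 1 library at a time gave 2 to 4 markers in HiAD against FFD (0.592% to 2.07% of all genes lower) and 0 to 2 in HiAD against Chow (0.736% to 3.16% lower). It gave 0 to 0 in FFD against Chow (0.00829% to 0.0749% higher) and 2 to 6 in RAGE hepKO against HiAD (10.4% to 17.1% higher). HiAD + PM against HiAD had 0 to 3 with both PM libraries kept (1.72% to 4.47% higher). With no filter more genes share the adjustment, and the cause of the other moves was not tested. With sample quality weights the sign turned for Cd5l (0.0366) and Folr2 (0.62) in HiAD against Chow, Cd163 in FFD against Chow (0.19) and Folr2 in HiAD + PM against HiAD (-0.0456), none of which passed. Leaving out 1 library at a time also turned signs that had not passed. The values spanned -0.249 to 0.457 for Marco, -0.466 to 0.0141 for Adgre1 and -0.642 to 0.122 for Folr2 in HiAD against Chow, -0.868 to 0.154 for Cd163 in FFD against Chow, -0.177 to 0.46 for Marco and -0.618 to 0.871 for Folr2 in HiAD + PM against HiAD, and -0.237 to 0.699 for Adgre1 in RAGE hepKO against HiAD. A replicate block on same-numbered HiAD and Chow libraries called 0 markers. Deviations of same-numbered libraries correlated at 0.036, -0.087 and -0.054, so the numbers were not taken to pair the mice. Read depth is unknown, which limits what can be said of Adgre1, Marco, Folr2 and Timd4 at levels near 1 FPKM.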
